A study of Mus musculus with 5 samples.

Results

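Genes that drive cell division were followed in whole knee joints of wildtype mice and of mice lacking both epiphycan and biglycan. The set was a list of 40 genes, 17 acting in S phase and 23 acting in mitosis, found by gene symbol among the probe sets present in both deposited tables and represented by the brightest probe set of each gene over all 5 arrays. Of the 40, 38 carried a probe set with that symbol alone (17 S-phase and 21 mitotic genes), out of 12393 genes named this way. Ccnb1 and Cdca8 had no such probe set and were not analysed here. Tyms, thymidylate synthase, was left untested: its brightest probe set read 88.7 and 69.1 in wildtype pools 1 and 2 and 51.4, 64.7 and 102 in double-null pools 1 to 3, below the intensity filter near a signal of 98.4. That left 37 genes, 16 S-phase and 21 mitotic, among 7436 genes tested.

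Both groups were male mice of a C57/Bl6:129 hybrid background, aged 3 months. The wildtype group held 2 arrays and the double-null group, with the epiphycan gene Epyc and the biglycan gene Bgn both inactivated, held 3. Each array carried RNA from the tibio-femoral joints of 3 mice (6 joints) mixed before extraction, so the spread between arrays is a spread between pools. Differences between single mice were averaged over the 3 mice of a pool. They cannot be seen singly but still enter that spread. Wildtype pool 2 and double-null pool 3 came in 1 table, called array type A here, and wildtype pool 1 with double-null pools 1 and 2 in the other, called array type B. The number of arrays limits the precision of every value below.

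A cell that divides copies its DNA in S phase and separates the copies in mitosis. Before S phase the MCM helicase is loaded onto origins with the help of Cdc6, and Cdc45 and the GINS complex then switch it on. Primase, DNA polymerase alpha and the sliding clamp PCNA copy the template, and ribonucleotide reductase and thymidylate synthase supply the building blocks. Mitosis runs on cyclin-dependent kinase 1 with cyclins A and B, on the Aurora and Polo kinases, on spindle motors, and on the anaphase-promoting complex, which ends it. In an adult joint most dividing cells are expected in the marrow, where red cells, granulocytes and B cells are made, and a smaller number among the columnar chondrocytes of the growth plate. RNA from a whole joint mixes all of them, so fewer dividing cells and less message per dividing cell cannot be told apart.

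The labels were checked on the targeted genes. All 3 Bgn probe sets fell in the double-null pools (log2 fold changes -3.48, -5.42 and -6.01, limma adjusted p = 0.00344, 0.000592 and 0.00451 over 22626 probe sets), and the single Epyc probe set, dim in whole joints, was at -1.64 (adjusted p = 0.158). Signals averaged close to 250.1 on every array after trimming, and the highest of 27 Bacillus control probe sets, which match no mouse RNA, read between 27.5 and 63.5 depending on the array. The 37 genes tested had mean signals from 152.7 to 4848, above those controls.

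The promoters of the cell division genes are shown first, since S-phase and mitotic genes are known to be driven through different elements: E2F sites for genes of replication, and the CHR element together with CCAAT boxes, read by the DREAM and MuvB complexes and by NF-Y, for genes of mitosis. Promoter windows of 250 bases before to 50 after the start site were taken from RefSeq (build GRCm38.p6), which held 34 windows for 32 of the 40 genes, Ccnb1 and Cdca8 among them. Entries were missing for Ccna2, Aurkb, Foxm1, Kif20a, Tpx2, Gins1, Ccne2 and Mcm4. Matches were searched on both strands. For the CHR element the letters were TTTGAA, and as the other accepted form TTCGAA. For the CCAAT box they were CCAAT. An E2F match was any of these: the form TTGGCGC, the form TTCGCGC, and the form TTCCCGC. An E2F match and a CCAAT box can share bases, as they did at 4 of the 26 E2F matches (in Ccnb1, Mcm7 and Prim1).

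A CHR match was present in 15 of 19 windows of mitotic genes (78.9%), in 3 of 15 windows of S-phase genes (20.0%) and in 19.2% of all 32851 windows. The E2F letters went the other way, with 9 of 15 S-phase windows, 3 of 19 mitotic windows (15.8%) and 8.07% of all windows. A CCAAT box was common to both, at 80.0% and 84.2% against 37.4% of all. Every mitotic window with a CHR match also held a CCAAT box, a combination found in 7.52% of all windows. Matches are letters in a window and were not tested for binding.

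**Figure D1:**
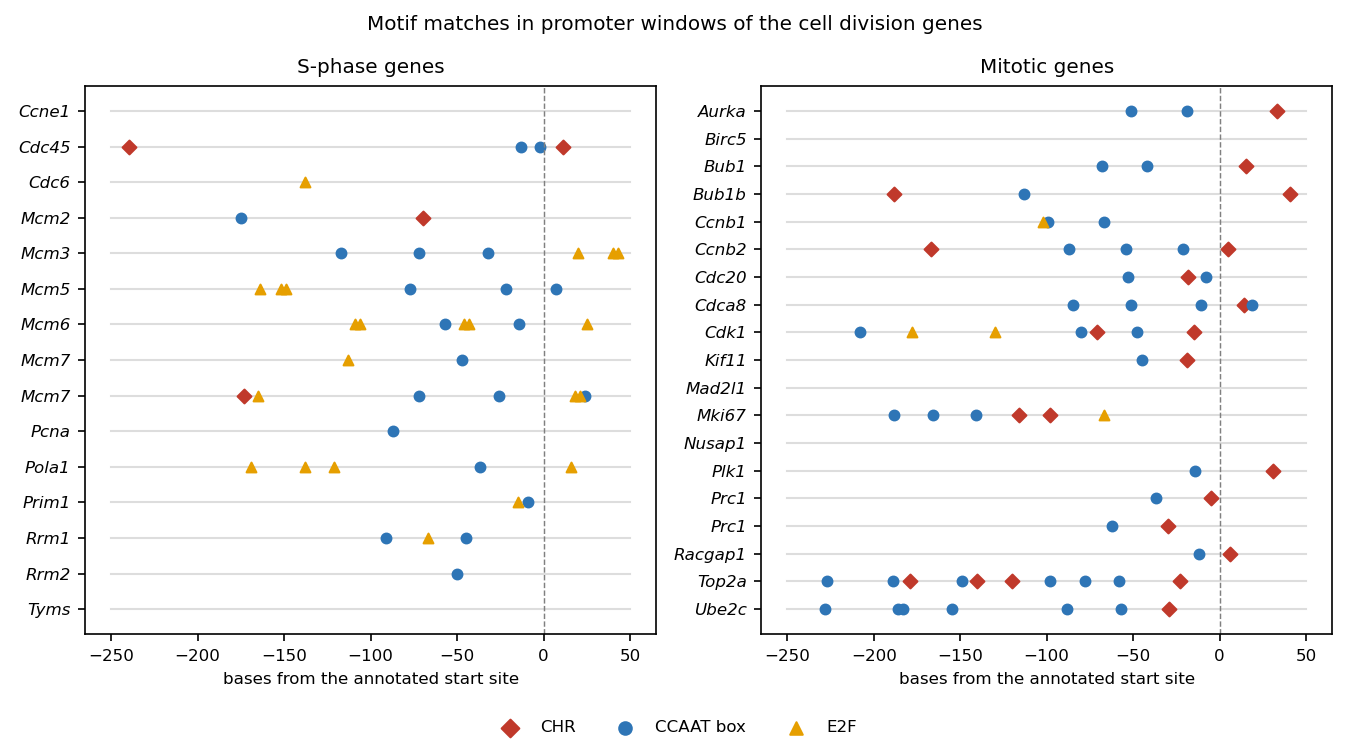
Position of CHR (diamonds), CCAAT box (circles) and E2F (triangles) matches in the 15 S-phase and 19 mitotic promoter windows, in bases from the annotated start site; genes with 2 windows appear on 2 lines. In mitotic genes 16 of 22 CHR matches lie within 100 bases of the start site, and 22 of the 26 E2F matches are in S-phase genes. The Prc1 match counts once in each of its overlapping windows, and E2F letters that overlap on both strands count separately. Positions over all windows were not computed.

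The upstream stretches of 250 bases below show both layouts, from 4 of the 6 genes whose wildtype and double-null arrays did not overlap in the values below. Of the other two, Ccne2 had no entry, and the window of Birc5 held no match to any of the motifs. Capitals mark the matches. Cdc6 and Mcm5 hold E2F letters, and Mcm5 adds a pair of CCAAT boxes. In Kif11 a reversed CCAAT box is followed by a reversed CHR at base -19. Aurka shows a pair of CCAAT boxes, and its CHR match lies 33 bases after the start site, outside the stretch printed.
Cdc6 (chr11:98907901-98908150, plus strand): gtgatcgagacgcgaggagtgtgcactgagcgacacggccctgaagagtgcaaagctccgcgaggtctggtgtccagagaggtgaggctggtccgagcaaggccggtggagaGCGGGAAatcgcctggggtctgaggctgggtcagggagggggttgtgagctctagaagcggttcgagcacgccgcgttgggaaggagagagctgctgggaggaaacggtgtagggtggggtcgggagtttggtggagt
Mcm5 (chr8:75109259-75109508, plus strand): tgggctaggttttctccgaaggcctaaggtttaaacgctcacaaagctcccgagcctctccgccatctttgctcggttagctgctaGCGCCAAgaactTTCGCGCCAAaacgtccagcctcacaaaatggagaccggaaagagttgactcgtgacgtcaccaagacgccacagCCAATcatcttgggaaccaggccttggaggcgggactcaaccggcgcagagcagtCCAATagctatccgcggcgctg
Kif11 (chr19:37376132-37376381, plus strand): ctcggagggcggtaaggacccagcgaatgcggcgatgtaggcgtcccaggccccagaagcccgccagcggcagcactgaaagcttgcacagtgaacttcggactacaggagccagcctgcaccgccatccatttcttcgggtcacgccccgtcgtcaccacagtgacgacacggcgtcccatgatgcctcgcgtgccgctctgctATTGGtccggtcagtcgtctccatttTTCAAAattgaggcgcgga
Aurka (chr2:172370571-172370820, minus strand): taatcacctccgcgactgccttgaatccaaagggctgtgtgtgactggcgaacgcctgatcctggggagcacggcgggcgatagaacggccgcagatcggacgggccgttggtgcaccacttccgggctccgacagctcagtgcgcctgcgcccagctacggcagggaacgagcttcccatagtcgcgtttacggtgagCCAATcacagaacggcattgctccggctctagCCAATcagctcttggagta

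The main comparison asked whether cell division genes differ in the joint when both proteoglycans are missing. None of the 37 genes passed the threshold, against 0.121% of all genes tested (9 of 7436, with 0.0807% higher and 0.0403% lower), and none reached an unadjusted p under 0.05, against 6.17% of all genes (3.55% higher and 2.62% lower; limma, Benjamini-Hochberg over 7436 genes, smallest adjusted p among them 0.818). Fitted log2 differences between double-null and wildtype pools, computed from log2(signal + 32) with array type in the model, ran from -0.37 for Cdc45 to 0.40 for Ccne2, that is from 0.775-fold to 1.32-fold. S-phase genes had a median of 0.035, with 11 above and 5 below 0, and mitotic genes a median of 0.021, with 13 above and 8 below. The median over all genes tested was -0.011, with 52.1% of them below 0.

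The precision of these values sets what they can show. The standard error had a median of 0.18, and the 95% interval of every one of the 37 fold changes held 0. The lowest bound was -0.78 (Cdc45) and the highest 0.88 (Pola1), so none of the intervals reached a doubling or a halving, and 20 of the 37 stayed within 0.5 of 0 on either side, against 34.3% of all genes tested. These intervals are per gene and are not adjusted for the number of genes.

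**Figure D2:**
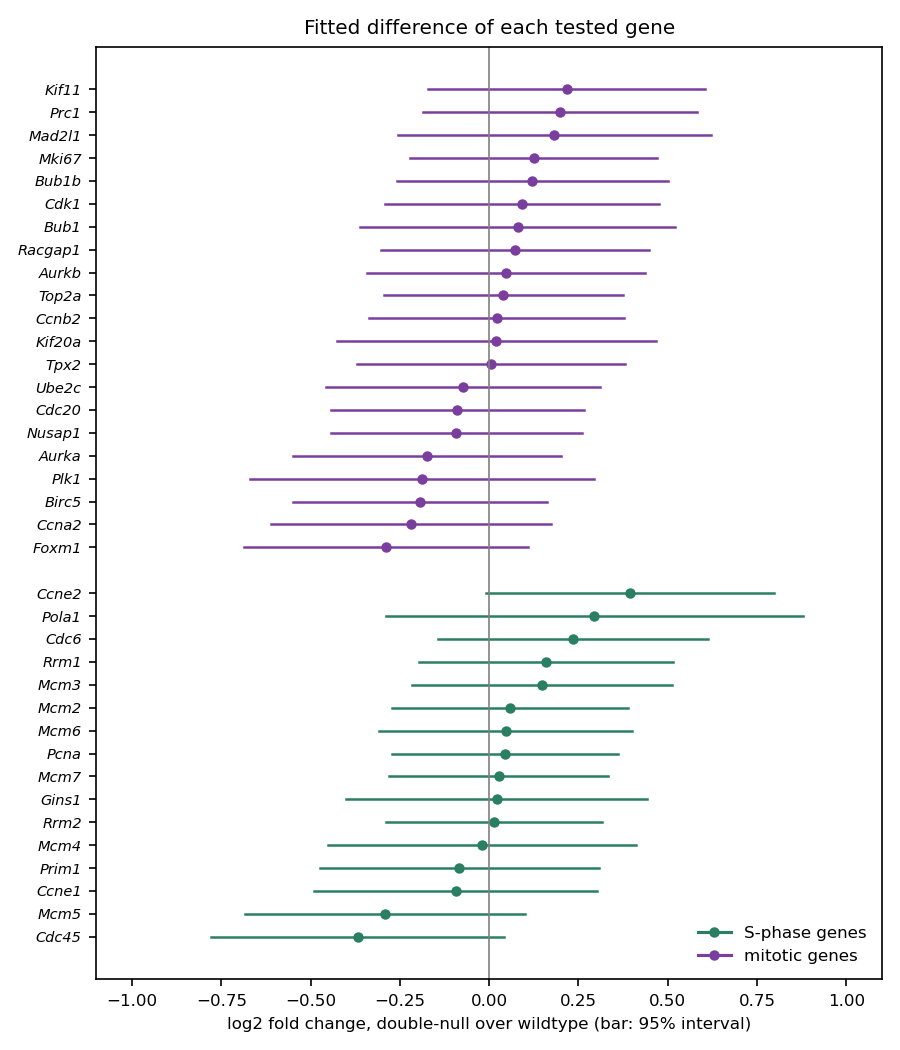
Fitted log2 fold change of each of the 37 tested genes, double-null over wildtype, with S-phase genes in green and mitotic genes in purple; bars are 95% intervals from limma. All 37 bars cross 0, with bounds from -0.78 to 0.88.

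Wildtype and double-null arrays kept apart for few of the genes. For Ccne2, Cdc6 and Kif11 all double-null arrays exceeded both wildtype arrays (3 of 37, against 9.49% of all genes), and for Mcm5, Aurka and Birc5 all were below both (3 of 37, against 10.2%). Either share, 3 of 37, was near that background. An exact permutation test of 1 gene has 10 arrangements of 2 against 3 arrays and cannot go below 0.1. The gap between the 2 wildtype pools was larger than the fitted genotype difference for 28 of 37 genes (75.7%, against 64.9% of all), and the range of the 3 double-null pools was larger for 34 of 37 (91.9%, against 81.9%). Both groups span the array types, so this gap and this range include any type difference, which the fitted value takes out.

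**Figure D3:**
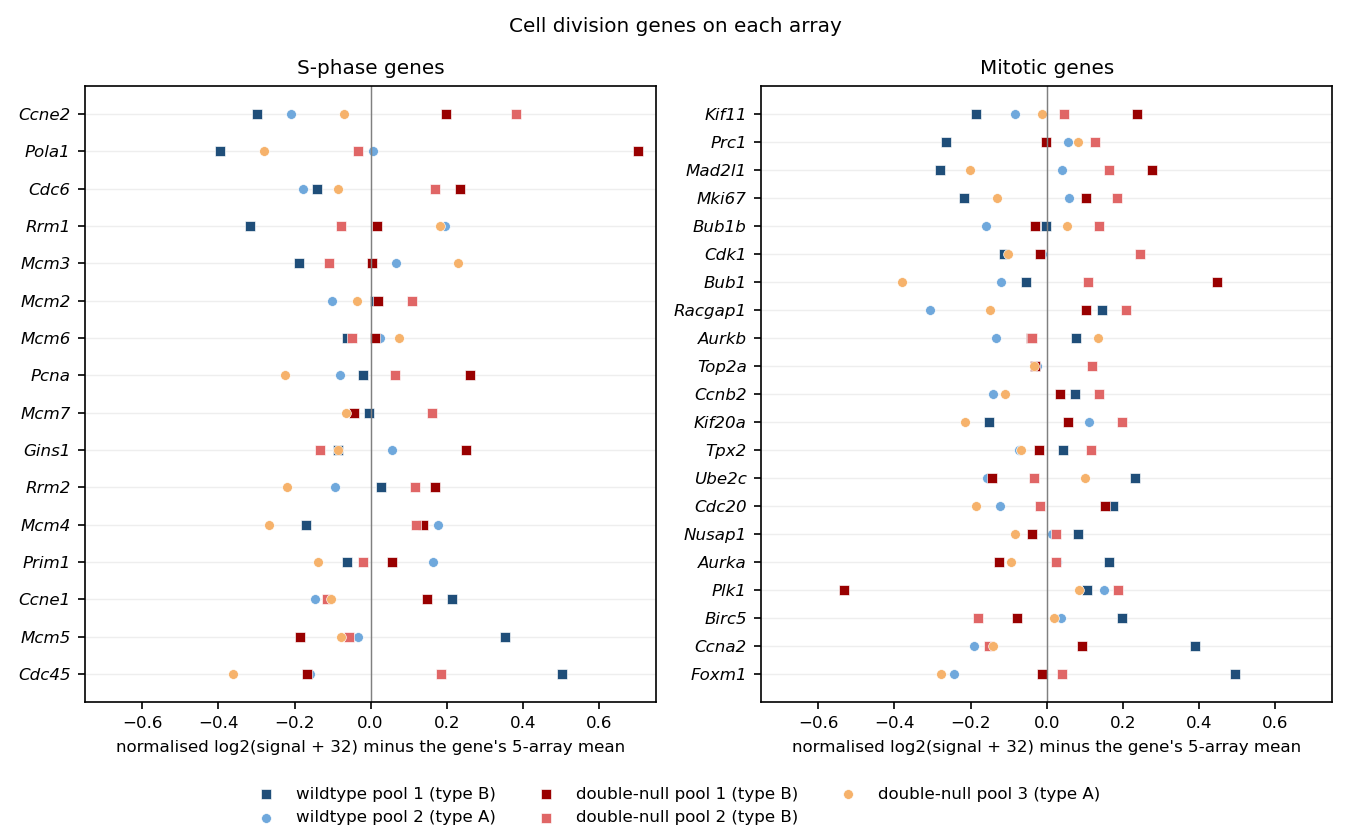
Normalised log2(signal + 32) of each tested gene on each of the 5 arrays, minus that gene's mean over the 5 arrays; blue points are wildtype and red or orange points double-null, squares array type B and circles type A. Blue and red points are mixed for 31 of the 37 genes, and Pola1 spans the widest range, 1.1.

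Among the S-phase genes, those that open S phase and load the helicase were mixed in sign. Ccne2, encoding cyclin E2, which with its kinase partner opens S phase, had signals of 300.1 and 324 in wildtype pools 1 and 2 and 435, 494 and 357 in double-null pools 1 to 3. All double-null arrays were above both wildtype arrays, with double-null pool 3 closest to them. Its log2 fold change was 0.40 ± 0.18 (SE), with a 95% interval of -0.0081 to 0.80 and a limma adjusted p of 0.818, the smallest of the set. The related cyclin gene Ccne1 was at -0.094.

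Cdc6, the loader of the MCM helicase, read 436 and 428 in the wildtype pools and 585, 545 and 455 in the double-null pools. Here too the groups did not overlap, and double-null pool 3 was the nearest to wildtype. The fitted difference was 0.24 ± 0.17 (SE), with an interval of -0.14 to 0.61 (limma adjusted p = 0.932). Cdc45, the helicase activator, read 377 and 232 against 219, 295 and 197. Wildtype pool 1 alone was high, and wildtype pool 2 lay inside the double-null range. Its difference was -0.37 ± 0.19 (SE), with an interval of -0.78 to 0.042 (adjusted p = 0.846). Gins1, of the GINS complex, was at 0.021.

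The 6 subunits of the MCM helicase did not share a direction. Mcm5 read 954 and 728 in the wildtype pools and 673, 719 and 704 in the double-null pools. The double-null values were tight and all below both wildtype values, but wildtype pool 2 exceeded the highest of them by a small margin and wildtype pool 1 stood well above. The log2 fold change of Mcm5 was -0.29 ± 0.18 (SE), with an interval of -0.68 to 0.10 (limma adjusted p = 0.89). Mcm7 read 4678 and 3968 against 4276, 5102 and 4129, with the groups overlapping and a difference of 0.027 (interval -0.28 to 0.33). The other subunit genes were at 0.059 (Mcm2), 0.15 (Mcm3), -0.019 (Mcm4) and 0.046 (Mcm6).

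Genes of DNA synthesis and nucleotide supply lay close to 0 with 1 wide exception. Pola1, the catalytic subunit of DNA polymerase alpha, read 149.8 and 208 in the wildtype pools and 344, 196 and 166 in the double-null pools. Double-null pool 1 stood alone at the top, and the other double-null pools sat among the wildtype values. Its difference of 0.29 ± 0.27 (SE) had the widest interval of the set, -0.29 to 0.88. Pcna, the sliding clamp, read 5089.6 and 4224 against 5553, 5293 and 4082. The lowest and the highest of these arrays were both double-null, and the difference was 0.043 (interval -0.27 to 0.36, limma adjusted p = 0.985). Rrm2, the S-phase subunit of ribonucleotide reductase, read 4875 and 3914 against 5068, 5063 and 3732, again with double-null pools at both ends, and was at 0.013 (interval -0.29 to 0.31). The primase gene Prim1 was at -0.083 and the large reductase subunit gene Rrm1 at 0.16.

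Among the mitotic genes, the general markers of cycling cells showed little difference. Mki67, encoding the Ki-67 antigen of dividing cells, read 3652 and 3939.5 in the wildtype pools and 4434, 4820.4 and 3625 in the double-null pools. In these deposited signals the lowest and highest arrays were both double-null, with wildtype pool 1 close to the lowest, and the difference was 0.12 ± 0.16 (SE), with an interval of -0.22 to 0.47 (limma adjusted p = 0.985). Top2a, the topoisomerase that untangles sister chromatids, read 2171 and 2155 against 2282, 2472 and 2136. Its arrays spanned 0.15 on the log2 scale, with the wildtype pools almost equal, and its difference was 0.04 (interval -0.29 to 0.37).

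Foxm1, the transcription factor that drives late cell cycle genes, read 556 and 326 in the wildtype pools and 380.4, 399 and 316 in the double-null pools. As for Cdc45, wildtype pool 1 alone was high and wildtype pool 2 lay inside the double-null range, for a difference of -0.29 ± 0.18 (SE) and an interval of -0.69 to 0.11 (limma adjusted p = 0.89). A second Foxm1 probe set above the filter was at 0.020, 2 dimmer ones below it were at -0.88 and -0.30, and the mean over probe sets gave -0.36 (limma adjusted p = 0.774). Ccna2, encoding cyclin A2 of S phase and early mitosis, read 1735 and 1162 against 1534, 1210.1 and 1187, with wildtype pool 1 again the highest and wildtype pool 2 the lowest. Its difference was -0.22 (interval -0.61 to 0.17) on the brightest probe set and 0.0042 on the other. Ccnb2, encoding cyclin B2, was at 0.021 and its kinase gene Cdk1 at 0.092.

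Kinases of mitosis and the chromosomal passenger Birc5 were mixed in sign. Aurka, the Aurora kinase of spindle poles, read 638 and 584 in the wildtype pools and 524, 575 and 529 in the double-null pools. The groups did not overlap, but wildtype pool 2 was only slightly above double-null pool 2. The difference was -0.17 ± 0.17 (SE), with an interval of -0.55 to 0.20 (limma adjusted p = 0.981). Birc5, encoding survivin, which works with Aurora B at centromeres, read 1908 and 1687 against 1717, 1498 and 1679.6. The deposited signals overlapped, with double-null pool 1 above wildtype pool 2, and the groups separated after normalisation alone. Its difference was -0.19 (interval -0.55 to 0.16, adjusted p = 0.953). Aurkb, the partner kinase, was at 0.048, and the Polo kinase gene Plk1 at -0.19, with double-null pool 1 alone low at 263 against 428 to 459.6 on the other 4 arrays.

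Genes of the spindle checkpoint and of mitotic exit were mixed in sign. Mad2l1, the checkpoint protein that holds back anaphase, read 529 and 669 in the wildtype pools and 832, 733 and 559 in the double-null pools. Wildtype pool 2 lay inside the double-null range, and the difference was 0.18 (interval -0.26 to 0.62, limma adjusted p = 0.985). Ube2c, the ubiquitin-conjugating enzyme of the anaphase-promoting complex, read 2161 and 1627 against 1775, 1824 and 1944. Both extremes were wildtype arrays, and the difference was -0.073 (interval -0.46 to 0.31). The checkpoint kinase gene Bub1 was at 0.079 and its relative Bub1b at 0.12. Cdc20, an activator of the anaphase-promoting complex, was at -0.089.

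Spindle motor and midzone genes had 5 of 6 values above 0, against 24 of the 37 genes and 3559 of all 7436. None passed, Kif20a and Tpx2 lay close to 0, and some of the 6 were added after their values were seen. Kif11, the motor that pushes spindle poles apart, read 389 and 423 in the wildtype pools and 538, 458 and 442 in the double-null pools. All double-null arrays were above both wildtype arrays, double-null pool 3 by a small margin. Its difference was 0.22 ± 0.18 (SE), with an interval of -0.17 to 0.60 (limma adjusted p = 0.953). Prc1, the protein that bundles midzone microtubules, read 508 and 644 against 633, 675 and 652. Wildtype pool 1 alone was low, and the difference was 0.20 (interval -0.19 to 0.58). Racgap1, which acts at the cleavage furrow, was at 0.072, the midzone motor gene Kif20a at 0.02, and the spindle assembly genes Tpx2 and Nusap1 at 0.0053 and -0.092.

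Several of these values moved with a single array. For Cdc45, Mcm5, Foxm1 and Ccna2 wildtype pool 1 was the highest of the 5 arrays, and for Ccne2, Pola1, Prc1 and Mad2l1 it was the lowest. After normalisation and over the whole set it was the highest array for 10 of 37 genes and the lowest for 10 of 37 (24.1% and 20.1% of all genes tested). Double-null pool 2 was the highest for 13 (19.4% of all), and double-null pool 3 the lowest for 12 (20.5% of all). The array with the highest value was double-null pool 2 for 10 of the 21 mitotic genes and double-null pool 1 for 5 of the 16 S-phase genes.

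Within each array type the comparison was repeated as the tables allow, 1 double-null pool against 1 wildtype pool on type A and 2 against 1 on type B. For S-phase genes the median difference was -0.033 in the type A pair and 0.13 on type B. For mitotic genes it was -0.016 and 0.010, against -0.015 and -0.0076 over all genes. On type A, 22 of 37 genes lay below 0, and on type B, 12 of 37 (52.2% and 51% of all genes). The sign turned between the types for 18 genes: 14 were below 0 on type A and above it on type B (26.9% of all genes), and 4 went the other way (25.7%).

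The turn was widest for Pola1, which stood at -0.29 in the type A pair and 0.73 in type B, followed by Mcm4 (-0.44 and 0.30) and Mad2l1 (-0.24 and 0.50). Mki67 was at -0.19 and 0.36, and Ube2c at 0.26 and -0.32. Of the genes whose groups were apart, Ccne2 was at 0.14 and 0.59, Cdc6 at 0.093 and 0.34, Kif11 at 0.07 and 0.33, and Mcm5 at -0.046 and -0.48. Aurka, at -0.12 and -0.21, and Birc5, at -0.016 and -0.33, kept their sign as well. An interaction term between array type and genotype tested these differences: none of the 37 genes passed and none had an unadjusted p under 0.05, against 0% and 6.17% of all genes (limma, smallest adjusted p 0.795). Each type holds a single wildtype pool, so a difference between types and a difference between wildtype pools cannot be told apart.

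**Figure D4:**
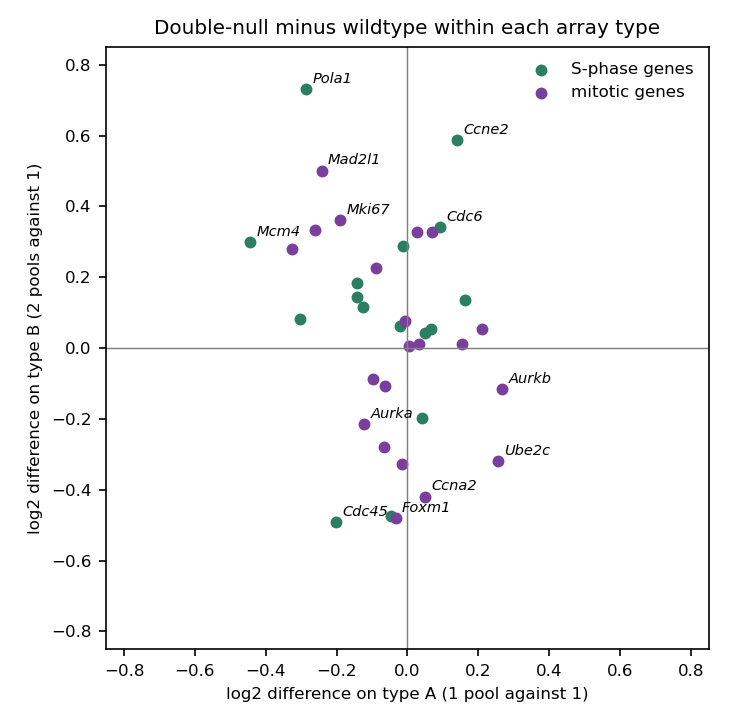
Log2 difference, double-null minus wildtype, of each tested gene on array type A (horizontal, 1 pool against 1) and on array type B (vertical, 2 pools against 1); green points are S-phase and purple points mitotic genes. The upper left area, below 0 on type A and above 0 on type B, holds 14 of the 37 genes.

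Between arrays, the level of these genes varied by more than the fitted medians of 0.035 (S-phase) and 0.021 (mitotic). The level of a list on an array was taken as the median, over its genes, of the log2 value minus the gene's 5-array mean. For S-phase genes it was -0.063 and -0.039 in the wildtype pools and 0.097, 0.022 and -0.086 in the double-null pools. For mitotic genes it was 0.075 and -0.072 in the wildtype pools and -0.011, 0.12 and -0.094 in the double-null pools. In both lists the wildtype pools lay inside the range of the double-null pools, and double-null pool 3 was the lowest array. The range of a gene over the 5 arrays had a median of 0.39 for the 37 genes and 0.49 for all genes tested, whose signals were lower (median 295.4 against 664.4).

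Other genes of the same pathways, on lists that hold none of the 40, also gave no call in limma. Of 39 further replication genes 34 were tested, with a median of -0.012 and 3 at an unadjusted p under 0.05, 1 higher and 2 lower, against 6.17% of all genes (3.55% higher and 2.62% lower). Pold1, the catalytic subunit of DNA polymerase delta, had the smallest p. It read 561 and 393 in the wildtype pools and 253, 328 and 304 in the double-null pools, all double-null arrays below both wildtype arrays, for a difference of -0.65 ± 0.20 (SE) (limma adjusted p = 0.429). The flap endonuclease gene Fen1 was at -0.42, the clamp loader subunit gene Rfc1 at 0.52 and the kinase gene Cdc7, which fires origins, at 0.34.

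Of 42 further mitosis genes 38 were tested, with a median of 0.034 and 2 at an unadjusted p under 0.05, 1 in each direction, against the same 6.17% of all genes. Kif23, a motor of the midzone, read 266 and 349 in the wildtype pools and 319, 371 and 583 in the double-null pools. Double-null pool 3 was far above the rest and double-null pool 1 below wildtype pool 2, for a difference of 0.51 ± 0.18 (SE) (limma adjusted p = 0.643). Cenpe, the kinetochore motor, read 279 and 317 against 157, 247 and 215, with every double-null array lower, at -0.44 (adjusted p = 0.784). Cdca3, which triggers mitotic entry, was at -0.32 and Gtse1, a microtubule-binding protein of G2 and mitosis, at -0.38.

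Regulators of G1 and inhibitors of the cycle were a list of 30, of which 23 were tested, with a median of 0.040 and 2 at an unadjusted p under 0.05, both lower, against 2.62% of all genes lower. E2f4, an E2F factor that mostly represses in resting cells, read 563 and 388 in the wildtype pools and 359, 280.2 and 328 in the double-null pools. The groups did not overlap, and the difference was -0.53 ± 0.20 (SE) (limma adjusted p = 0.675). The inhibitor gene Cdkn1b, encoding p27, read 606 and 456 against 548, 378 and 311, overlapping, at -0.45. Cdkn1c, encoding p57, was at 0.43 and Cdkn1a, encoding p21, at 0.39, the last with 0.88 in the type A pair against 0.027 on type B. Over the 3 lists, 5 of 95 genes lay higher with groups apart and 12 lower, against 9.49% and 10.2% of all genes.

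Markers of the tissues that could hold dividing cells were measured on the same arrays. Marrow was present. Slc4a1, the red cell anion exchanger, read 6061 and 5775 in the wildtype pools and 7213, 7773 and 6049 in the double-null pools. The 10 erythroid markers on the arrays summed to between 24790.5 and 26478 in double-null and between 22694 and 26499.5 in wildtype pools. The 11 neutrophil and granulocyte precursor markers, led by S100a9 and S100a8, summed to 149575 and 95188 in the wildtype pools and 92876, 130822 and 110932 in the double-null pools. The 11 B lineage markers on the arrays, led by the immunoglobulin gene Ighm, summed to between 6959 and 8072 in double-null and between 7970.4 and 8079.7 in wildtype pools. Hba-a1 and Pax5 were below the highest Bacillus control. For Hba-a1 this is the brightest probe set with that symbol alone, with a mean signal of 26.3. Probe sets with several symbols were not used, and Hbb-bs and Hbb-b1 had none of their own. Globin message cannot be judged from these values.

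Cartilage was present as well, with all 15 markers of the growth plate list on the arrays and 11 tested. Col2a1 read 10257 and 3731 in the wildtype pools and 4246, 4394 and 5704 in the double-null pools. Whether this signal came from the growth plate or from other cartilage of the joint was not tested. Matn1 was below the highest Bacillus control, and Ihh, Sox9 and Col9a2 were below the filter. The level of this list was 0.42 and -0.19 in the wildtype pools, numbered 1 and 2, and -0.14, -0.099 and 0.089 in the double-null pools. The summed cartilage signal was 17751 in wildtype pool 1, 8752 in wildtype pool 2 and between 9841 and 12084 in the double-null pools. Wildtype pool 1 was the highest array for Cdc45, Mcm5, Foxm1 and Ccna2 and the lowest for Ccne2, Pola1, Prc1 and Mad2l1. It had the highest summed deposited signal for all marker lists but muscle and fat (6 of 8), and over all genes tested. The erythroid and B lineage sums were nearly matched by a double-null pool. On the normalised level it was highest for the erythroid, neutrophil, cartilage and osteoblast lists. It was below double-null pools 1 and 2 for macrophages (0.092 against 0.117 and 0.122) and the lowest array for the B lineage (-0.092). After quantile normalisation, which gives each rank the same value on every array, S100a9 and S100a8 took only the values 14.26 and 14.29. Their differences of -0.0048 and 0.0048 between the groups follow from that and say nothing of neutrophil content. The part of these tissues, or of the array's signal, in the values of the cell division genes was not tested. The summed signal of the 10 skeletal muscle markers ran from 32118 in double-null pool 2 to 78952 in double-null pool 3, with 55005 and 66254 in the wildtype pools, and their level was higher on type A (0.55 and 0.60) than on type B (-0.74 to -0.17). Cell division genes moved by less than muscle markers between the same arrays. Their type difference, type B over type A, had a median of 0.084, against 0.022 over all genes tested. It was above 0 for 29 of 37, against 4027 of 7436 of all. For array type in limma, 0 of 37 passed the threshold (0.686% of all genes). An unadjusted p under 0.05 was found for 2 of 37 (637 of 7436 genes). The part of muscle in the values was not tested.

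**Figure D5:**
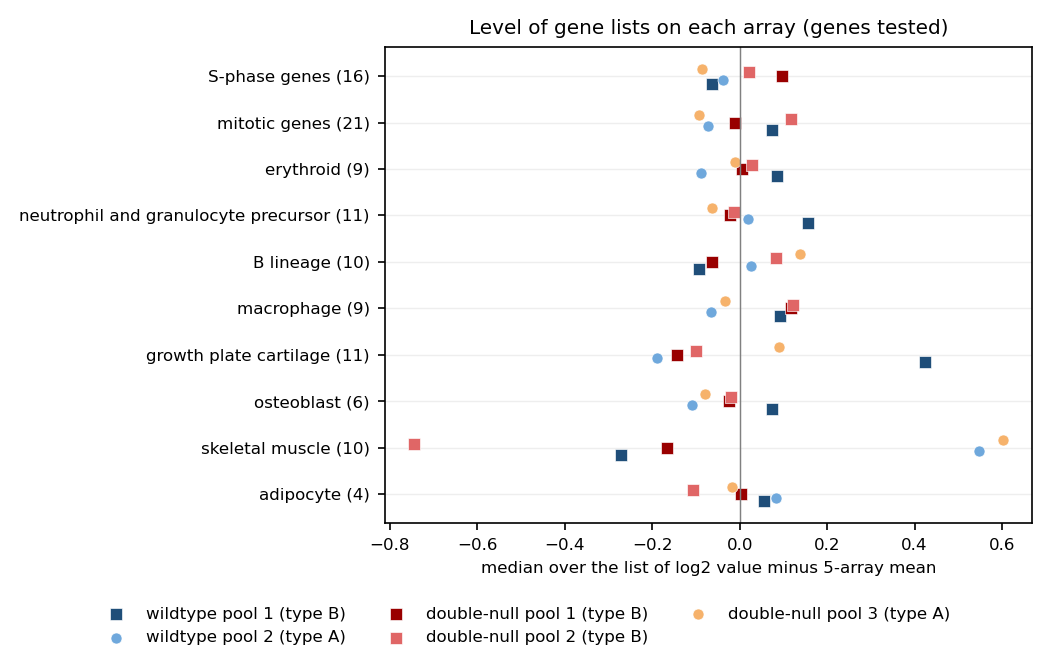
Level of the S-phase and mitotic genes and of 8 marker lists on each array, as the median over the list of the log2 value minus the gene's 5-array mean; the number of genes tested is given in brackets, blue points are wildtype and red or orange points double-null. The cell division lists stay within -0.094 to 0.12, while cartilage markers reach 0.42 in wildtype pool 1 and muscle markers run from -0.74 to 0.60.

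Probe sets of the same gene did not always point the same way. Among the 37 genes, 16 were read by several probe sets past the intensity filter, and in 9 of them (Aurkb, Ccna2, Foxm1, Mcm3, Mcm4, Mcm7, Prim1, Rrm1 and Rrm2) these differed in sign. For Mcm7 the brightest was at 0.027 and the others at -0.22, -0.18 and -0.13. Over all 69 probe sets of the listed genes 0 passed in limma (smallest adjusted p 0.788 over 22626 probe sets) and 1 had an unadjusted p under 0.05, a dim Foxm1 probe set with a mean signal of 57.1, at -0.88. Names of 4 of the brightest probe sets end in x_at and of 4 in s_at, which Affymetrix uses for probes that can match more than 1 transcript.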

How the data were processed

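Biotin-labelled RNA from whole joints, purified with Trizol and a column, was read on Affymetrix arrays (labels' protocols). The authors deposited linear signal intensities, 1 per probe set, and the submitters' processing notes name MAS5. Neither the MAS5 version nor its target intensity is given in the sources used here. Tables belong to 2 platform records with the same 22690 probe sets, of which 20393 had 1 gene symbol, 691 several and 1606 none; 20364 were matched to a RefSeq symbol by Entrez number.

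Here, log2(signal + 32) values were quantile normalised, each gene was its brightest probe set, and the 7436 genes above the 40th percentile of mean value were fitted in limma 3.58.1 (R 4.3.3; eBayes with an intensity trend, two-sided, array type as a term, residual df 2, prior df 9.75). Adjustment was by Benjamini-Hochberg over all of them, with a threshold of 0.05. SE and 95% intervals belong to the fitted value. Nothing states how animals were assigned to pools. The fit was tested on data simulated from its own design and variances with independent normal noise. That test cannot show whether the 5 arrays meet the assumptions of the fit. No set tests were run. The genes, lists and tests were chosen with earlier results of these data known. Genes given sample by sample were the 5 S-phase and 7 mitotic genes with the smallest p and the 3 brightest of each, plus up to 4 per further list and up to 3 brightest markers; other members, and Plk1 by sample, were added after their values were seen to complete each role.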

Additional observations from a re-analysis of the deposited data

How the results depend on the processing

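Over 16 alternatives (scaling, a smaller and a larger pseudocount, filter, array-type term, array type B alone, replicate block, intensity trend, mean over probe sets and each pool left out) none of the cell division genes tested (34 to 38, by setting) and none of the further cell cycle genes tested passed in limma; the smallest adjusted p were 0.475 and 0.213. Ccne2 had an unadjusted p under 0.05 in 7 of the 16, and no other cell division gene tested did in any. These 7 are not separate checks. Some of them reduce to the same array type B contrast, where the log2 fold change of Ccne2 was 0.587 each time. The rest were median-centred scaling, no array-type term, the replicate block and the mean over probe sets. There, 1 of 37 cell division genes stood against 5.26% to 6.6% of all genes. The interaction with array type gave 0 calls in each of the 8 settings in which it was fitted; it was not run with another design or with a pool left out.

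The S-phase median was 0.13 on array type B alone, and ran from -0.033 to 0.13 without single pools; the mitotic median ran from -0.016 to 0.039. Of 287 values of the 18 genes given sample by sample, 273 kept their sign. Many of these could not change. A different filter or no intensity trend leaves a fold change as it is, as does the probe-set mean for genes with 1 probe set. With single pools left out, the sign turned for 9 of the 18 genes. Without wildtype pool 1 at the one end and without wildtype pool 2 at the other, the log2 fold change ran from -0.29 to 0.73 for Pola1, -0.24 to 0.50 for Mad2l1, -0.19 to 0.36 for Mki67, -0.14 to 0.18 for Pcna, -0.13 to 0.12 for Rrm2, -0.0070 to 0.075 for Top2a, 0.050 to -0.42 for Ccna2 and 0.26 to -0.32 for Ube2c. For Mcm7 it ran from -0.031 without double-null pool 2 to 0.072 without double-null pool 1, with -0.021 without wildtype pool 1, and the mean over probe sets gave -0.13. Without double-null pool 1, Pcna (-0.030) and Rrm2 (-0.018) turned, and without double-null pool 2, Top2a (-0.0035). Without wildtype pool 1 the contrast is that of array type A, and without wildtype pool 2, or without double-null pool 3, that of type B.

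Over all genes, 9 passed; 5 did with the deposited scaling, with the larger pseudocount and without the intensity trend, 4 without the array-type term, 2 without the filter, on array type B alone and with the replicate block, and 2 to 52 without single pools. Deviations of same-numbered pools from their group means had a correlation across 7436 genes of 0.0021 for number 1 and -0.18 for number 2. Array type was not taken out of them. The deviations of the 2 wildtype pools are exact opposites, so the correlations are not separate checks. They cannot decide whether the numbers pair the pools, which is not stated. With the replicate block 0 cell division genes passed, and the S-phase and mitotic medians were 0.078 and 0.073. The causes of these changes were not tested. The number of arrays, and the signal over background for dim genes such as Tyms, limit what could be detected.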
